A study of Mus musculus with 13 samples.

Results

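Small intestinal crypts of mice that lacked Eed were set against crypts of wild-type (WT) mice, with 3 mRNA libraries in each group, chosen by their titles from the 13 libraries of the series. The Eed knockout (KO) mice are labelled Eed-/- and the controls WT, on a mixed C57BL/6-FVB background in both groups. All mice received beta-naphthoflavone for 6 weeks, beginning when they were 6 weeks old. Through the aryl hydrocarbon receptor it induces AhCre, a recombinase transgene under a Cyp1a1 promoter that is active in intestinal epithelium among other tissues. The sample descriptions name AhCre for both crypts of sequencing run 440, with EedFF in the KO animal, so that control carried the transgene too, while those of run 385 name no transgene. Each group had 2 libraries from run 385 and 1 from run 440, named here by run and number (385_1, 385_2 and 440_1), and values are given in that order. Reads per gene were compared over the 20537 autosomal genes among 21420 identifiers that the count tables of both runs shared.

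Eed is a core subunit of Polycomb repressive complex 2 (PRC2), which trimethylates lysine 27 of histone H3 and keeps genes of other tissues and developmental stages silent. Eed binds the finished mark and activates the methyltransferase subunit of the complex. In the intestine the crypt holds the stem cells, their dividing progeny and the Paneth cells that secrete antimicrobial peptides, while absorptive cells mature on the way to the villus.

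The 6 libraries held between 11421666 and 18300644 counts. Separate animals are not named in the labels, so p-values measure only how far these libraries differ among themselves, which may be technical. Of the variance in log2 levels, 58.3% lay on a first component that separated the genotypes and 24.6% on a second that separated the runs, with Eed KO 440_1 at its far end. Of 7 epithelial markers, 0 were called higher and 2 lower (Epcam and Cdx2), and their summed level ran from 4329 to 8174 CPM (counts scaled to library size) in Eed KO and from 6181 to 7372 in WT. All 4 crypt base markers (Lgr5, Olfm4, Lyz1 and Mki67) were lower in Eed KO, and in bulk libraries fewer cells of a type and less RNA per cell cannot be told apart. The calls of Cdx2 and Mki67 were lost on leaving out Eed KO 385_1, Eed KO 385_2 or WT 385_2, or run as a term. That of Lgr5 was lost on leaving out WT 385_2. None of 8 villus enterocyte markers was called (edgeR, adjusted p from 0.123 to 0.552), and their sum was highest in Eed KO 440_1, with ranges of 130.7 to 2433 CPM in Eed KO and 583.2 to 1705 in WT. Immune markers summed to 42.01 to 132.9 CPM in Eed KO against 41.68 to 45.88 in WT, and 3 of 7 were called higher (Itgax, Laptm5 and Tyrobp). Some alternative fits lost these 3 calls, as given below. None of 10 mesenchymal and endothelial markers was called, but WT 440_1 stood apart with a sum of 469.2 CPM, against at most 144.1 in Eed KO. Xist, expressed from the inactive X chromosome of females, was at 2.678 and 2.801 CPM in the WT crypts of run 385 and at 281.8 CPM or more in the other 4 libraries. Within run 385 genotype and this sex pattern cannot be told apart, while both crypts of run 440 had the female pattern, and genes on chromosomes X and Y are left out throughout.

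The targeted gene served as a check of the labels. Eed (ENSMUSG00000030619, chr7:89954656-89980983, GRCm38) stood at 16.1, 24.6 and 15.9 CPM in the Eed KO crypts and at 53.3, 61.4 and 48.4 in the WT crypts. No Eed KO library reached the level of any WT library, and the log2 fold change was -1.53 ± 0.21 (SE, n = 3 in each group) with adjusted p = 0.00575 by edgeR's quasi-likelihood test. A remainder of transcript was thus present in all 3 Eed KO libraries.

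Genes that rose and genes that fell without Eed lay at different levels of expression in WT crypts. Genes that rose had low WT levels at the median, and many rose by large factors. Genes that fell were mostly well expressed in WT crypts and fell by smaller factors. At an adjusted p under 0.05, 1408 of 13352 autosomal genes tested were higher in Eed KO (10.5%) and 972 were lower (7.28%). The median log2 fold change was 2.35 among the genes that rose, -1.16 among those that fell and -0.06 over all genes tested. At least 16-fold changes numbered 332 among the rises and 13 among the falls. The median pooled level in WT crypts was 1.99 CPM for the genes that rose, 55.1 CPM for those that fell and 27.1 CPM over all genes tested. In Eed KO crypts the medians lay closer together, at 13.6, 26.1 and 26.2 CPM in the same order. The WT level enters the fold change, so part of the difference in WT level follows from sorting genes by direction. Of the genes that rose, 89 had no WT count, 101 lay at up to 0.1 CPM in WT, 369 at 0.1 to 1, 490 at 1 to 10, 324 at 10 to 100, 34 at 100 to 1000 and 1 above. Together the genes that rose took 1.69% to 1.98% of a WT library and 5.64% to 6.71% of an Eed KO library. Those that fell took 16.8% to 18.2% of a WT library and 5.55% to 8.22% of an Eed KO library. All 3 Eed KO libraries lay above all 3 WT libraries for 1352 of the 1408 genes that rose, and below them for 839 of the 972 that fell. The calls came from the same libraries and the share over all genes tested was not counted, so these counts add nothing to the calls.

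The count of calls depended on single libraries. With 1 Eed KO library left out, 562 genes were higher and 207 lower (without 385_1), 980 and 525 (without 385_2) or 2230 and 1730 (without 440_1). With 1 WT library left out, the counts were 853 and 410 (without 385_1), 553 and 173 (without 385_2) or 2346 and 1537 (without 440_1). Treating same-numbered libraries as pairs, in a fit with the replicate block, left 1005 genes higher, 1000 of them among the 1408, and 528 lower, all among the 972. Scaling moved the balance, since genes higher made up 59.2% of calls here, 77.9% with library totals (1963 higher and 557 lower) and 70.6% with upper quartile scaling (1664 and 693). Library totals moved the median of all genes to 0.17, against -0.06 here.

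**Figure D1:**
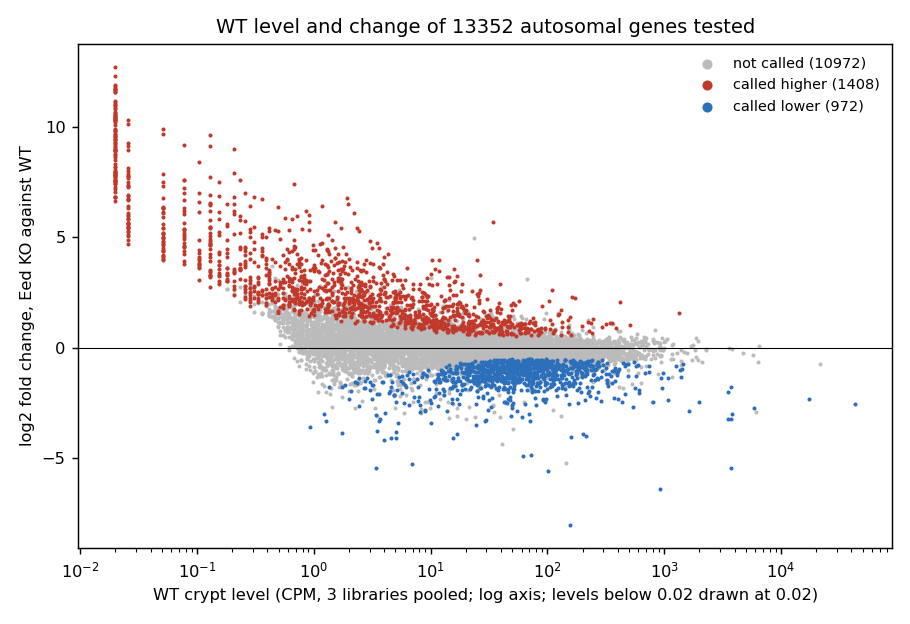
Each point is 1 of 13352 autosomal genes, with its pooled level in the 3 WT crypt libraries (CPM, log axis) against its log2 fold change, Eed KO against WT; red marks 1408 genes called higher, blue 972 called lower and grey the rest. The red points gather at low WT levels, with a median of 1.99 CPM, and the blue points at higher ones, with a median of 55.1 CPM.

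The gradient ran across the whole range of WT levels, and since these levels also enter the fold change it is a description. Of 3196 genes tested with a WT level of 1 to 10 CPM, 15.3% rose and 2.44% fell. At 10 to 100 CPM, 4.51% of 7187 rose and 8.75% fell. At 100 to 1000 CPM, 1.75% of 1942 rose and 12.7% fell, and of the 52 genes above 1000 CPM 1 rose and 18 fell. Below 1 CPM a gene passed the low-count filter mostly through its Eed KO libraries and so had to differ, and those counts are given below as a description.

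The 2 runs share no library, so run 440 gives a separate reading of the genes called in run 385. Within run 385 alone, with 2 libraries in each group, 2218 of 13521 genes were called higher (16.4%) and 1613 lower (11.9%). Of the 2218, 83% were also higher in the Eed KO than in the WT library of run 440, 50% by at least 2-fold, and 2.71% were at least 2-fold lower there. Of the 1613, 83.4% were lower in run 440, 27.8% by at least 2-fold, and 2.05% were at least 2-fold higher. Over all genes tested within run 385, 46% were higher and 53.9% lower in run 440, 11.8% and 12.4% by at least 2-fold. Of the 678 genes with a log2 change of 3 or more in run 385, 95.1% were higher in run 440. Of the 109 genes with a log2 change of -3 or less, 77.1% were lower in run 440. A gene near 0 in WT can hardly be lower in Eed KO. The share among large rises therefore cannot be compared with that among falls or over all genes. With 1 library per genotype, run 440 alone has no replicate check.

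**Figure D2:**
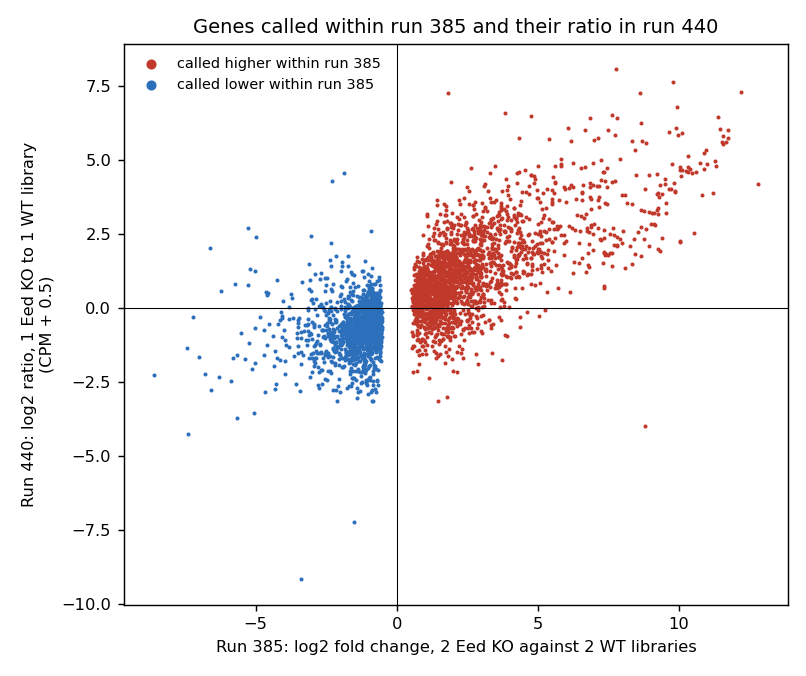
The log2 fold change within run 385 (2 Eed KO against 2 WT libraries) is plotted against the log2 ratio of the 1 Eed KO to the 1 WT library of run 440, with 0.5 CPM added to each. Points are the 2103 genes called higher (red) and 1603 called lower (blue) within run 385 that were also tested over the 6 libraries; most red points lie above 0 and most blue points below it.

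Some genes without a count in any WT crypt had counts in every Eed KO library, and several of the highest are best known from other organs. In all, 1813 autosomal genes had no count in the 3 WT libraries, and 401 of them had a count in every Eed KO library, 92 with at least 10 in each. The reverse was rarer, since 1178 genes had no count in Eed KO, 35 of them had a count in every WT library and 0 had at least 10 in each. Among the 1813, 89 passed the low-count filter, through their Eed KO libraries alone, and all 89 were called; 81 of these encode proteins. Their level in Eed KO was low, with a median of 5.92 CPM and a highest value of 59.8 CPM. For these genes a fold is a lower bound against a floor of 3 counts summed over the WT libraries.

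Tmprss6, a membrane protease through which liver cells control iron uptake, stood at 31.95, 25.3 and 43.04 CPM in the Eed KO crypts, at least 448-fold higher than the floor. Ano3, of the anoctamin family and best known from neurons, stood at 85.3, 70.3 and 8.59 CPM (at least 636-fold higher), and the library of run 440 was the lowest. Gp2, a glycoprotein of pancreatic zymogen granules and of M cells, stood at 18.3, 23.2 and 12.2 CPM (at least 222-fold higher). Counts in every Eed KO library were a condition for naming these genes. Sftpd, the collectin surfactant protein D of the lung, stood at 13.8, 7.55 and 28.3 CPM (at least 233-fold higher). Bpifb1, a secreted protein of airway epithelium, stood at 19.6, 8.13 and 12.9 CPM (at least 175-fold higher). Gkn1, a secreted protein of the gastric surface, stood at 3.16, 6.64 and 22.8 CPM (at least 159-fold higher). Their levels were uneven, and Gkn1 and Sftpd were highest in Eed KO 440_1. Aqp8, a water channel of pancreas and colon, stood at 1.74, 2.08 and 31.3 CPM (at least 182-fold higher), almost all of it in 440_1, and its call was lost without the run term (adjusted p = 0.066). Trpv6, an epithelial calcium channel, stood at 6.96, 3.65 and 10.5 CPM, and Fut9, which makes the Lewis x carbohydrate, at 8.700, 14.3 and 1.83 CPM. Psapl1, a relative of the lysosomal prosaposin, stood at 8.86, 4.15 and 11.05 CPM. The calls of the other 9 of these 10 genes held under each alternative that gave a value, with edgeR adjusted p of at most 0.0414 for Psapl1 and 0.0419 for Fut9. Of the 3 pancreas and liver markers in both tables, Ttr was higher (16.37, 23.99 and 22.04 CPM against 4.82, 5.88 and 2.61), Alb was lower and Cela1 was not called (adjusted p = 0.773). The call of Alb was lost with the replicate block (edgeR adjusted p = 0.056).

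**Figure D3:**
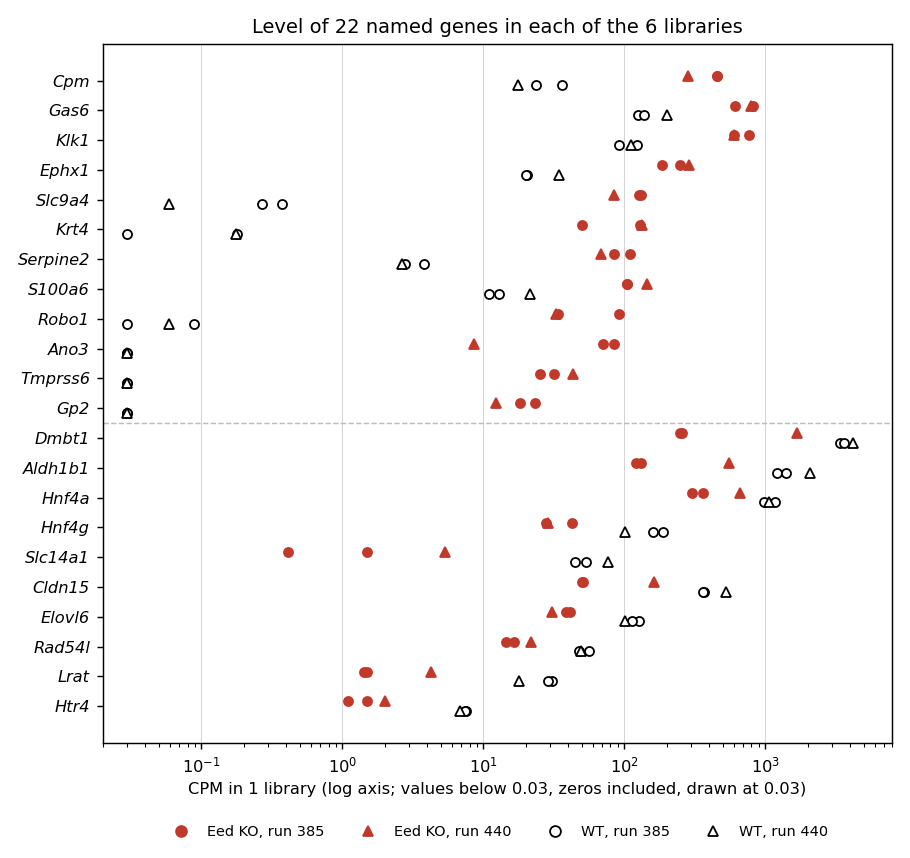
Level of 22 named genes in each of the 6 libraries, in CPM on a log axis with values under 0.03, zeros included, drawn at 0.03; red marks Eed KO, open symbols WT, circles run 385 and triangles run 440. Above the dashed line are 12 genes whose 3 Eed KO values all lie above the 3 WT values. Below it are 10 genes whose Eed KO values all lie below, and such separation was a condition for naming each gene.

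Promoters of the genes that rose were of both kinds found in mammalian genomes, those rich in CpG dinucleotides, where PRC2 is known to bind, and those poor in them. The windows below run from 250 bases before to 50 bases after the annotated start (RefSeq, GRCm38.p6), written 5′ to 3′ on the gene's strand with each CpG in capitals. Cpm (chr10:117629250-117629549, plus strand) and Gas6 (chr8:13494486-13494785, minus strand) rose among the most in absolute level and hold 37 and 17 CpG sites, with a CpG ratio (observed to expected from base content) of 0.91 and 0.705. Gp2 (chr7:119459223-119459522, minus strand) and Trpv6 (chr6:41636356-41636655, minus strand) had no WT count and hold 4 and 1 CpG sites, with a ratio of 0.229 and 0.0506. Over 31396 such windows on autosomes the median was 7 sites and 36.4% had a ratio of 0.6 or more. The letters TATAAA, searched on both strands, occur in the Gp2 window and not in the other 3, and in 13.6% of all windows.
Cpm: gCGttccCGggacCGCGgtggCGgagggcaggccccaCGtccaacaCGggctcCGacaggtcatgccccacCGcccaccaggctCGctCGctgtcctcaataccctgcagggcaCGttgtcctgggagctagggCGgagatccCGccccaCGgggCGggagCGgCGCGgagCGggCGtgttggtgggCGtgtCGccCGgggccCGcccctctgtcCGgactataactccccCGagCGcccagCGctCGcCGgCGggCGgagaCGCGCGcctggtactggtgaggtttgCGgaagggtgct
Gas6: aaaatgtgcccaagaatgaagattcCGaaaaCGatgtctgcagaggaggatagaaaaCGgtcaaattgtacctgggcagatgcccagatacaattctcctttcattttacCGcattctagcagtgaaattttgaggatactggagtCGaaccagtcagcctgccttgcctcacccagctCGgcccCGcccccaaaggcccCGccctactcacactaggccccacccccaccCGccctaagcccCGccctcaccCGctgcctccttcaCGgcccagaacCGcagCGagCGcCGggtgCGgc
Gp2: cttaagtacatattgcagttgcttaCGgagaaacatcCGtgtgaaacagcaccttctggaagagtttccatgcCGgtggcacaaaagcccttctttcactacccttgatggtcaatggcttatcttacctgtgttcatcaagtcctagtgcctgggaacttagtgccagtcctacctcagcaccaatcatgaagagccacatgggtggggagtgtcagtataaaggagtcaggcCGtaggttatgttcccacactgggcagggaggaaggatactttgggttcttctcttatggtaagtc
Trpv6: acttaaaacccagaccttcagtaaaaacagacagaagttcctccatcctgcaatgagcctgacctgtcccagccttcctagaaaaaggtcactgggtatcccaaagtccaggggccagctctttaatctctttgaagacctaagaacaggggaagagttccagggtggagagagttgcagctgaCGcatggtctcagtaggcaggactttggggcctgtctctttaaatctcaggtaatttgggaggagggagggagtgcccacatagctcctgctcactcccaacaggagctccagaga

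Over all protein-coding genes, CpG content was read from the first 300 bases of 1 GENCODE M21 transcript per gene, since fewer than 80% of the called genes had a window in the promoter table. The share of genes with a ratio of 0.6 or more was 60.6% among the 1362 that rose, 68.1% among the 950 that fell and 68.6% over all tested. CpG content goes along with expression, so the shares are also given for genes of like WT level. At 1 to 10 CPM in WT it was 59.6% of the 483 genes that rose, 39.7% of the 68 that fell and 49.6% of the 2228 tested and not called. Above 10 CPM the order differed, with 64.7% of the 357 genes that rose, 70.4% of the 881 that fell and 76.3% of the 7815 tested and not called. The 175 genes that rose from at most 0.1 CPM had a share of 60.6%; every gene tested at that level was called, so no tested gene of like level stands beside them, and without the low-count filter the share was 51.18%. These shares are descriptions with no test.

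**Figure D4:**
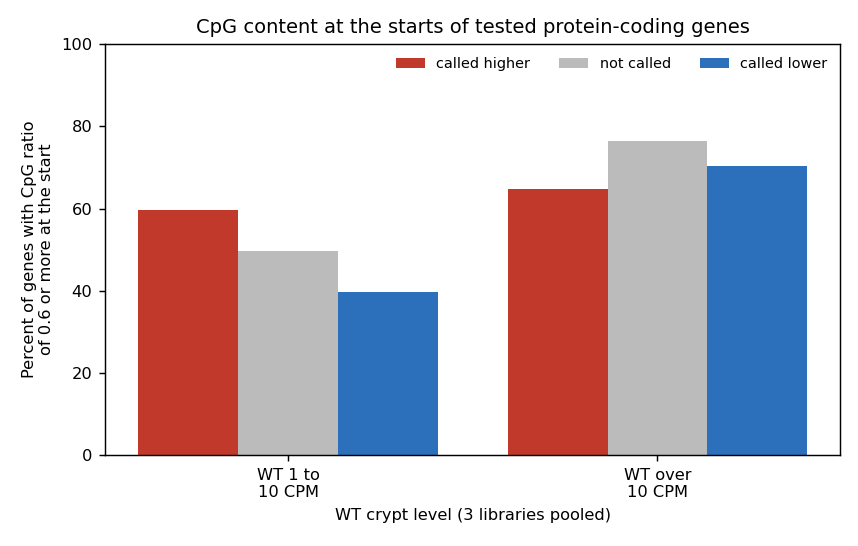
Share of protein-coding genes (percent) whose first 300 transcript bases have a CpG ratio of 0.6 or more, by pooled WT level, for tested genes called higher (red), not called (grey) and called lower (blue). At 1 to 10 CPM the red bar is the highest at 59.6%, and above 10 CPM the grey bar is the highest at 76.3%.

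By the rise in mean CPM, and outside 1047 genes of cell type and other lists left out of this ranking, the genes that rose furthest included several that encode secreted or membrane proteins. Klk1, a member of a list left out and described among the proteases, rose by more CPM than any of these genes except Gas6. Cpm, carboxypeptidase M, a membrane enzyme that removes basic residues from the end of peptides, stood at 455.8, 454 and 283 CPM in Eed KO and at 36.4, 23.8 and 17.5 in WT. Its log2 fold change was 3.95 ± 0.22 (SE, adjusted p = 0.000916 by edgeR). Gas6, the ligand of the TAM receptor kinases, stood at 823, 613 and 788 CPM against 125, 139 and 201 in WT, a log2 fold change of 2.29 ± 0.21 (adjusted p = 0.00214). Pglyrp1, a peptidoglycan recognition protein that acts on bacteria, stood at 603, 473 and 855 CPM against 91.3, 92.05 and 279, a log2 fold change of 2.24 ± 0.26 (adjusted p = 0.00392). Both were higher in run 440 than in run 385 among the WT libraries. A rise within each run was a condition for naming them. Idh1, the cytosolic isocitrate dehydrogenase that produces NADPH, rose by 1.53 ± 0.17 on the log2 scale (adjusted p = 0.00374), from 131, 129.7 and 121 CPM in WT to 411, 430.3 and 283 in Eed KO. Oit1, a secreted protein of the gut, rose by 1.39 ± 0.17 (adjusted p = 0.00448).

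Smaller relative rises concerned other abundant transcripts. The protease Tmprss2 stood at 975, 1038 and 1045 CPM against 426, 507 and 570.4, and Tspan1, a tetraspanin, at 551, 489 and 655 against 182, 207 and 310.1. The lysosomal protease cathepsin D (Ctsd) stood at 434, 329 and 661 CPM against 173, 170.1 and 321, and Itm2b, a membrane protein of the secretory pathway, at 677, 667 and 715 against 342, 347 and 432. Ceacam1, an adhesion molecule of epithelial cells, stood at 923, 527 and 793 CPM against 406, 396 and 267. Groups that do not overlap were a condition for naming these 5 genes, and their calls were less firm. All 5 calls were lost without WT 385_2, and all but that of Tspan1 without WT 385_1. Omitting Eed KO 385_1 also lost those of Tmprss2, Itm2b and Ceacam1, omitting the run term those of Ctsd and Ceacam1, and Ceacam1 lost its call within run 385 and with the replicate block (adjusted p = 0.0762). The highest edgeR adjusted p over the fits that left out 1 library was 0.083 for Tmprss2, 0.0536 for Tspan1, 0.0788 for Ctsd, 0.118 for Itm2b and 0.186 for Ceacam1, and that of Ctsd without the run term was 0.12.

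Among abundant genes that fell were an innate defence glycoprotein, Paneth cell peptides, enzymes of the gut lumen and hepatocyte nuclear factor 4 alpha. Gm15292 (chr8:21249754-21250556), which lies in the alpha-defensin cluster, stood at 109, 137 and 189 CPM in Eed KO against 802, 769 and 815 in WT, a log2 fold change of -2.49 ± 0.21 (adjusted p = 0.00183). AY761184, in the same cluster, stood at 567, 872 and 1297 CPM against 5076, 3908 and 2171, and its call was lost with the replicate block (adjusted p = 0.0688) and without any 1 of the 4 libraries of run 385 (at most 0.127). Reads of defensin genes can be split between near-identical copies, so both values are uncertain. Pnliprp2, a lipase of the gut lumen, stood at 314, 239.7 and 227 CPM against 891, 837 and 1085, a log2 fold change of -1.85 ± 0.22 (adjusted p = 0.00429). The calls of Gm15292 and Pnliprp2 held under each alternative.

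In other abundant genes that fell, Eed KO 440_1 lay between the run 385 Eed KO libraries and the WT libraries. Dmbt1, a scavenger receptor glycoprotein that binds bacteria, stood at 259, 248 and 1672 CPM against 3407, 3646 and 4224. Aldh1b1, a mitochondrial aldehyde dehydrogenase, stood at 131, 121 and 556 CPM against 1396, 1213 and 2068, and Lgals2, a galectin, at 79.4, 141 and 593 against 861, 778 and 1415. Hnf4a, a nuclear receptor that maintains the intestinal epithelium, stood at 360.1, 302 and 667 CPM against 1178, 983 and 1062. The villus enterocyte markers summed to 2433 CPM in Eed KO 440_1, more than in the other Eed KO libraries and, unlike these 4 genes, more than in any WT library (583.2 to 1705), and their part in the order was not tested. Without the run term the calls of these 4 genes were lost, with adjusted p of 0.054 for Aldh1b1, 0.113 for Dmbt1 and 0.171 for Lgals2. Those of Dmbt1, Lgals2 and Hnf4a were also lost without Eed KO 385_1, Eed KO 385_2 or WT 385_2, and that of Hnf4a without WT 385_1, with adjusted p over these fits of at most 0.102, 0.0738 and 0.107.

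The adhesion molecule of intestinal epithelium fell by less. Epcam stood at 768, 781 and 1049 CPM against 1317, 1369 and 1586, with a log2 fold change of -0.73 ± 0.17. Its call was lost with library totals, upper quartile scaling, no run term, the replicate block (adjusted p = 0.0831) and without any 1 library of run 385 (at most 0.176). Serinc3, a membrane protein, stood at 884, 751 and 615 CPM against 1494, 1475 and 1358, and Ivns1abp, an actin-associated protein, at 668, 954 and 275 against 1358, 1873 and 1121. Both lost their calls without Eed KO 385_1 or WT 385_2, Serinc3 also without WT 385_1 and Ivns1abp also with upper quartile scaling or no run term (at most 0.0931 for Serinc3 and 0.174 for Ivns1abp).

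Gene families and pathways were then described by 53 lists. Members near silence in WT could be tested only where they were present in Eed KO, so the counts among tested members describe the lists and do not set them apart. The counts of most lists rested on few libraries, since leaving out 1 library moved the count of rises by over 1.5 times in 40 of the 44 lists with a rise, and that of falls in all 46 lists with a fall. Over all genes tested 10.5% were higher and 7.28% lower, and lists of housekeeping genes had these calls. Of 76 cytoplasmic ribosomal protein genes tested, 0 were called in either direction by edgeR or DESeq2 (1 at most when 1 library was left out). Of 77 mitochondrial ribosomal protein genes 2 were higher and 4 lower, of 87 nuclear-encoded respiratory chain genes 1 and 5 and of 45 proteasome genes 0 and 5 (11.1% lower). Of 75 splicing factors 2 were higher and 1 lower, of 344 zinc finger genes 13 and 3 and of 20 tRNA synthetases 0 and 1. With the replicate block these became, in the same order, 1 and 0, 0 and 1, 0 and 4, 2 and 1, 7 and 1, and 0 and 0. DESeq2 called more of them lower, with 8 mitochondrial ribosomal protein, 17 respiratory chain, 13 splicing factor and 9 zinc finger genes. Of the lists with at least 10 tested members, the share that rose was highest for S100 proteins and annexins (45%), and the share that fell for DNA repair (31.8%) and cholesterol synthesis and uptake (30.4%).

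**Figure D5:**
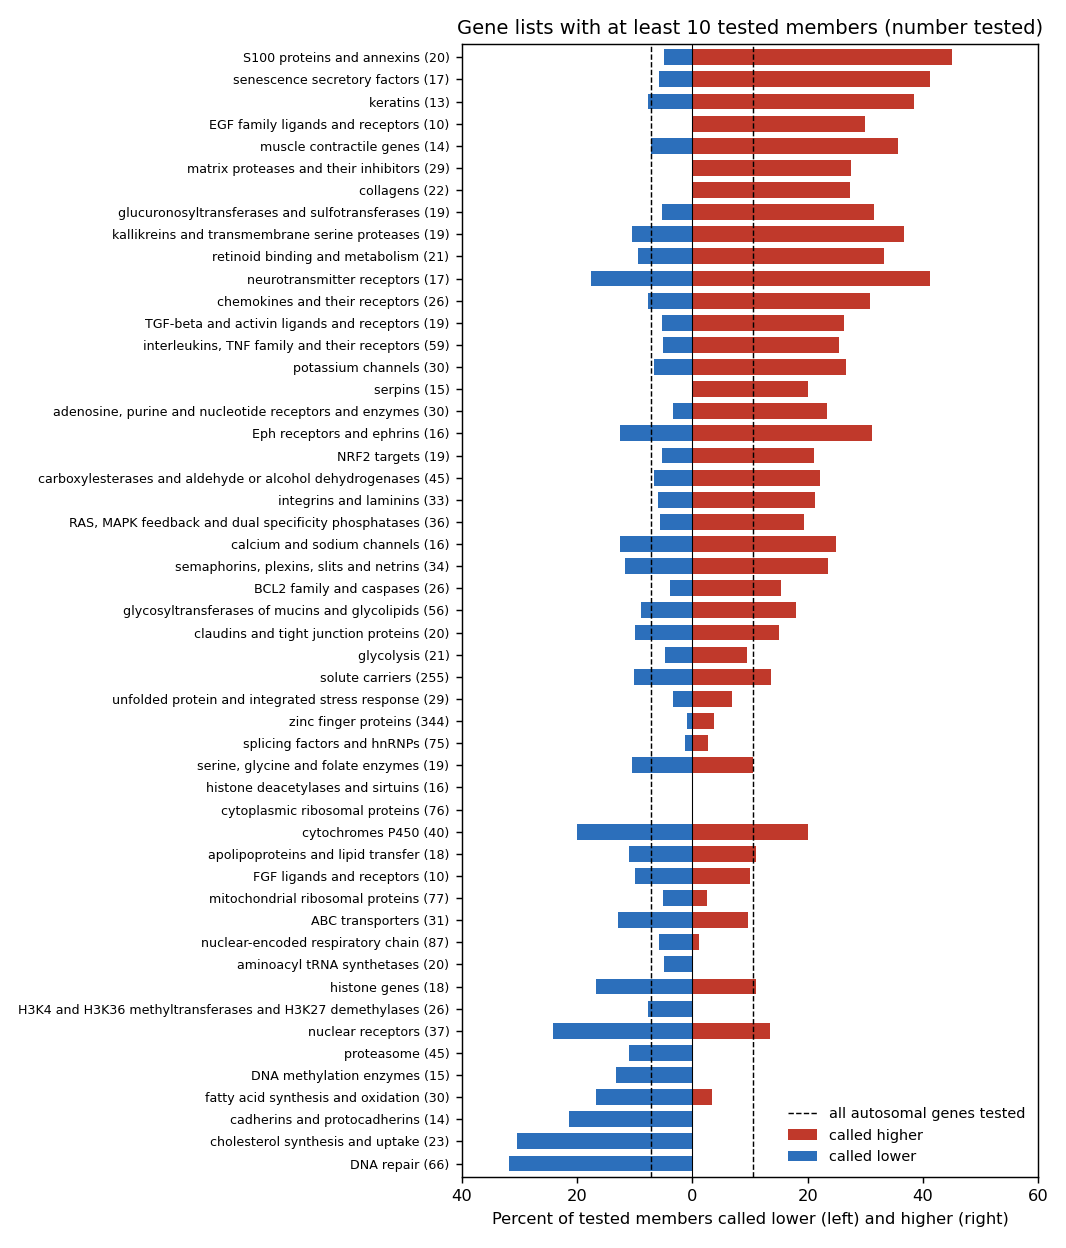
Percent of the tested members of each list called higher (red, to the right) or lower (blue, to the left) in Eed KO, with the number tested in brackets; dashed lines mark 10.5% and 7.28% over all autosomal genes tested. Lists with at least 10 tested members are ordered by the difference of the 2 shares, from S100 proteins and annexins at the top, with 45% higher, to DNA repair at the bottom, with 31.8% lower.

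Transporters and channels moved in both directions. The tables shared 336 solute carrier genes, and of 255 tested 35 rose (13.7%) and 26 fell (10.2%), against 28 and 17 with the replicate block. These shares were near the 10.5% and 7.28% over all genes tested, and the median log2 fold change was -0.02. Slc9a4, a sodium-proton exchanger of acid-secreting gastric cells, stood at 133, 127 and 84.8 CPM against 0.268, 0.373 and 0.0593 in WT, where it had 8 counts in all, a log2 fold change of 9.01 ± 0.32 (adjusted p = 0.0003). Slc22a8, the renal organic anion transporter, stood at 27.7, 16.4 and 10.3 CPM, with 3 counts over the 3 WT libraries (adjusted p = 0.000916). Both were nearly absent from every WT library. In the other direction, Slc14a1, a urea transporter, stood at 1.503, 0.415 and 5.32 CPM against 53.5, 44.9 and 76.8, a log2 fold change of -4.90 ± 0.53 (adjusted p = 0.00354). Slc30a2, which carries zinc into secretory granules, stood at 48.3, 40.8 and 70.00 CPM against 249, 247 and 209 (log2 fold change -2.18 ± 0.24), and Slc1a2, a glutamate transporter, at 1.27, 1.08 and 0.916 against 9.55, 6.53 and 8.24. Of 6 aquaporins tested, 3 rose: beside Aqp8, Aqp3, a water and glycerol channel, stood at 10.2, 13.4 and 36.2 CPM against 0.893, 0.2801 and 1.48 (log2 fold change 4.43 ± 0.39), and Aqp5, of salivary and airway glands, at 14.2, 2.08 and 8.13 CPM against 1 WT count. The call of Aqp5 was lost without WT 385_2 (adjusted p = 0.0526). Among 31 ABC transporters 3 rose (9.68%) and 4 fell (12.9%), which became 2 and 2 with the replicate block. Abcc4, which exports organic anions and cyclic nucleotides, stood at 133, 70.4 and 97.3 CPM against 13.1, 13.5 and 15.9 (log2 fold change 2.82 ± 0.28).

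Receptors and channels of excitable cells appeared at low levels. The tables shared 67 neurotransmitter receptor genes, and of 17 tested 7 rose and 3 fell, against 4 and 3 with the replicate block. Drd4, a dopamine receptor, stood at 12.2, 7.72 and 10.9 CPM against 0.0893, 0 and 0.178 in WT (adjusted p = 0.00218), and Scn4b, a sodium channel subunit, at 7.197, 2.82 and 9.33 against 0.357, 0.2801 and 0.415 (adjusted p = 0.00514). Htr4, a serotonin receptor, fell from 7.59, 7.47 and 6.88 CPM in WT to 1.11, 1.49 and 2.003 in Eed KO (log2 fold change -2.26 ± 0.34), with the call lost without Eed KO 385_1 or WT 385_2 (adjusted p of at most 0.0526). Among 30 potassium channel genes tested 8 rose and 2 fell, which became 5 and 1 with the replicate block, and 0 and 0 without Eed KO 385_1. Enteric neuron and glial markers were near 0 in all 6 libraries, with sums of 1.545 to 5.81 CPM in Eed KO and 2.49 to 4.017 in WT, and S100b was at 0 in WT. Adora1, an adenosine receptor, rose from 11.4, 13.3 and 14.6 CPM in WT to 60.6, 46.4 and 71.1 in Eed KO (adjusted p = 0.00183), and P2ry1, a receptor for ADP, fell from 39.9, 33.3 and 33.6 to 13.2, 16.5 and 11.4 (adjusted p = 0.00574).

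Genes of cell junctions and keratins were called in both directions. Cldn15, the claudin that forms sodium pores in the small intestine, stood at 49.9, 50.7 and 162 CPM against 367, 362 and 529 in WT, a log2 fold change of -2.48 ± 0.28 (adjusted p = 0.00373). Cldn8, a sealing claudin of kidney tubules and colon, stood at 16.2, 20.4 and 12.9 CPM against 2.499, 2.61 and 2.13, a log2 fold change of 2.75 ± 0.24 (adjusted p = 0.0019). Groups that do not overlap were a condition for naming either gene. Of 20 tight junction genes tested, 3 rose and 2 fell, and Tjp1, Cgn and Cldn7 were among those not called. Krt4, a keratin of stratified epithelium such as the esophagus, stood at 130.4, 50.5 and 133 CPM against 0.179, 0 and 0.178, from 5 WT counts in all, a log2 fold change of 9.64 ± 0.67 (adjusted p = 0.00126). Of 13 keratins tested 5 rose and 1 fell (4 and 0 with the replicate block, and 1 and 0 without Eed KO 385_1), and the main keratins of the intestine, Krt8, Krt18 and Krt19, were not called (adjusted p = 0.23, 0.129 and 0.647). No cadherin or protocadherin of 14 tested rose and 3 fell; Cdh17, the liver-intestine cadherin, stood at 379.5, 388 and 529.6 CPM against 943, 877 and 1071 and the desmosomal Dsg2 at 229.8, 199 and 209.6 against 423, 405 and 409. Both of these calls were lost without WT 385_2 (adjusted p = 0.0537 and 0.0721).

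Several secreted proteases, protease inhibitors and calcium-binding proteins rose. Of 20 S100 and annexin genes tested 9 rose and 1 fell, with a median log2 fold change of 0.74 against -0.06 over all genes tested, and 8 and 1 with the replicate block. Their count of rises was 3 (without WT 385_2) to 11 when 1 library was left out. S100a6, an EF-hand protein of growing epithelial cells, stood at 105, 104 and 145 CPM against 10.98, 12.98 and 21.6 (adjusted p = 0.000923). Anxa3, an annexin, stood at 62.2, 62.7 and 55.1 CPM against 1.43, 2.05 and 5.04, while the 1 that fell was Anxa13, the intestinal annexin, at 31.9, 31.95 and 32.00 against 97.3, 88.3 and 68.4. Serpine2, an inhibitor of thrombin and plasminogen activators, stood at 109.7, 85.3 and 68.9 CPM against 2.77, 3.83 and 2.67, a log2 fold change of 4.82 ± 0.22 (adjusted p = 0.000475). Klk1, tissue kallikrein, stood at 606, 766 and 601 CPM against 124, 92.4 and 112, a log2 fold change of 2.59 ± 0.21. Tmprss13, a membrane serine protease, had no WT count and stood at 5.299, 4.23 and 7.61 CPM, at least 76.95-fold higher. Of 19 kallikreins and membrane serine proteases tested 7 rose and 2 fell (6 and 1 with the replicate block), and Prss12, a serine protease of the nervous system, was lower at 2.06, 2.66 and 3.95 against 9.73, 14.7 and 18.97. Of 22 collagen genes tested 6 rose and 0 fell, and the rises numbered 4 with the replicate block, 2 (without Eed KO 385_1) to 11 when 1 library was left out and 11 within run 385. Among them was Col9a3, a cartilage collagen, at 21.5, 12.8 and 15.7 CPM against 0.982, 0.5601 and 0.593. The fibrillar Col1a1, Col1a2 and Col3a1 of mesenchyme were not called (adjusted p = 0.88, 0.852 and 0.866) and were highest in WT 440_1. Matrix proteases had 8 rises and 0 falls of 29, which fell to 3 with the replicate block and to 1 without Eed KO 385_1.

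Among genes that rose were growth factor ligands, their receptors, axon guidance genes and inhibitors of RAS signalling. Areg, an EGF receptor ligand, stood at 7.91, 7.72 and 17.5 CPM against 0.268, 0.2801 and 0.296, a log2 fold change of 5.22 ± 0.38 (adjusted p = 0.00157), and Hbegf, another, at 31.00, 21.2 and 20.5 against 5.71, 4.201 and 4.98 (adjusted p = 0.00373). These were 2 of the 3 rises among 10 EGF family genes tested, of which 0 fell. Fgfr2, a fibroblast growth factor receptor of epithelia, stood at 145, 114 and 119.7 CPM against 33.03, 40.2 and 36.9, a log2 fold change of 1.78 ± 0.18, and Tgfbr2, a TGF-beta receptor, at 168, 107 and 137 against 43.8, 41.3 and 36.9, a change of 1.76 ± 0.21. Spry4 and Rasal1, which restrain RAS signalling, stood at 10.4, 10.5 and 12.99 CPM against 1.07, 1.400 and 1.84 and at 14.9, 13.8 and 16.8 against 1.07, 1.21 and 2.37. Each of these 6 genes held its call under every alternative. In the list of RAS, MAPK feedback and dual specificity phosphatase genes 7 rose and 2 fell of 36 tested (6 and 0 with the replicate block). The falls were Dusp16 and Rasa3 (adjusted p = 0.0184 and 0.0409). Robo1, the receptor of the guidance factor Slit, stood at 92.5, 34.1 and 32.6 CPM, with 2 counts over the 3 WT libraries (adjusted p = 0.00158). Sema3f stood at 104, 55.9 and 62.7 CPM against 4.37, 6.16 and 7.71, a log2 fold change of 3.61 ± 0.35, and its receptor Nrp2 at 39.5, 26.5 and 24.2 against 3.57, 2.800 and 3.202, a change of 3.21 ± 0.26. Among Eph receptors, Epha3 stood at 22.9, 14.2 and 6.53 CPM with 3 WT counts in all, and Epha2 at 62.7, 42.9 and 70.5 against 15.4, 10.4 and 13.8. In the list of semaphorins, plexins, slits and netrins 8 rose and 4 fell of 34 tested (7 and 1 with the replicate block), and among Eph receptors and ephrins 5 and 2 of 16 (3 and 1).

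Some cytokine receptors and a receptor antagonist rose, as did 3 of 7 immune markers, whose calls were not firm. Tyrobp and Itgax lost theirs with the replicate block (adjusted p = 0.105 and 0.0511) and without any 1 library of run 385. Laptm5 lost its call without Eed KO 385_1 or WT 385_2 (at most 0.0697). Of 59 interleukin and TNF family genes tested 15 rose and 3 fell (13 and 3 with the replicate block), and the rises numbered 6 (without WT 385_2) to 31 when 1 library was left out. Il1rn, the interleukin 1 receptor antagonist, stood at 40.3, 38.3 and 31.6 CPM against 0.803, 0.8402 and 1.01, a log2 fold change of 5.33 ± 0.24 (adjusted p = 0.000467). Il17re, the epithelial receptor of interleukin 17C, stood at 24.6, 21.4 and 36.9 CPM against 3.303, 2.33 and 6.11, a log2 fold change of 2.87 ± 0.23 (adjusted p = 0.00183). Tnfrsf14, a TNF receptor that binds BTLA, stood at 5.69, 7.05 and 10.4 CPM against 35.98, 44.4 and 46.01, a log2 fold change of -2.48 ± 0.21 (adjusted p = 0.00186). The pan-leukocyte marker Ptprc was at 64.7, 54.5 and 4.41 CPM in Eed KO and at 23.7, 21.2 and 13.6 in WT. In run 440 it was thus lower in Eed KO, while the 3 immune markers called were higher there, with Laptm5 at 17.34 against 8.12 CPM, Itgax at 2.86 against 0.889 and Tyrobp at 3.03 against 1.245. Of 26 chemokine genes and receptors tested 8 rose and 2 fell (6 and 0 with the replicate block). Ccl25, the chemokine that draws lymphocytes to the small intestine, stood at 9.65, 29.5 and 79.4 CPM against 192, 158 and 189, and its call was lost with the replicate block (adjusted p = 0.0577), without the run term and without any 1 library of run 385 (at most 0.105). The share of immune cells in these values was not tested.

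Nuclear receptors had calls in both directions. Of 37 tested, 5 rose and 9 fell, and 5 and 6 with the replicate block. Hnf4g, the paralog of Hnf4a in the intestine, stood at 27.8, 42.7 and 28.8 CPM against 189.7, 161 and 102 in WT, a log2 fold change of -2.15 ± 0.23 (adjusted p = 0.00354). Nr5a2, which drives crypt cell renewal, stood at 10.99, 12.1 and 15.9 CPM against 55.3, 45.3 and 41.1 (log2 fold change -1.87 ± 0.22), and Nr3c1, the glucocorticoid receptor, at 64.1, 68.97 and 29.7 against 206, 185 and 113 (log2 fold change -1.68 ± 0.17). Groups that do not overlap were a condition for naming these 3 genes. Nr2f1, an orphan receptor of the developing brain, stood at 7.197, 5.06 and 3.15 CPM with 2 WT counts in all, and Nr4a1, an immediate early receptor, at 49.7, 19.8 and 20.4 against 2.05, 2.89 and 2.55. Rarg, a retinoic acid receptor, stood at 23.7, 12.9 and 23.4 CPM against 2.14, 3.27 and 3.498, a log2 fold change of 2.75 ± 0.33 (adjusted p = 0.00433). Zfp750, a regulator of epidermal differentiation, was among the few zinc finger genes that rose, at 38.6, 16.7 and 32.6 CPM against 0.179, 0.187 and 0.119 (adjusted p = 0.00129).

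Retinoid genes changed at several steps of the pathway. Of 21 tested 7 rose and 2 fell, the same numbers with the replicate block. Rdh10, which oxidizes retinol to retinal, stood at 119, 181 and 101 CPM against 19.9, 24.5 and 28.8, and Aldh1a3, which oxidizes retinal to retinoic acid, at 6.88, 5.64 and 10.9 against 0.446, 0.8402 and 1.07. The falls were Rdh11, a retinal reductase, at 21.99, 19.7 and 31.3 CPM against 76.9, 72.3 and 99.7, and Lrat, which esterifies retinol for storage, at 1.42, 1.49 and 4.29 against 30.6, 28.8 and 18.1. The log2 fold changes were 2.44 ± 0.29 for Rdh10, 3.30 ± 0.37 for Aldh1a3, -1.78 ± 0.15 for Rdh11 and -3.51 ± 0.51 for Lrat. Of the 4 genes, Lrat lost its call in 1 alternative, without Eed KO 385_1 (adjusted p = 0.0563).

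Enzymes that process foreign compounds differed between genotypes although both received beta-naphthoflavone. Of 40 cytochrome P450 genes tested 8 rose and 8 fell (8 and 4 with the replicate block). Ephx1, the microsomal epoxide hydrolase, stood at 248, 185 and 286 CPM against 20.5, 20.1 and 34.6, a log2 fold change of 3.29 ± 0.20 (adjusted p = 0.00105). Cyp2c65 stood at 42.1, 89.9 and 83.1 CPM against 12.1, 8.03 and 9.31, a log2 fold change of 2.86 ± 0.35, and Sult6b2, a sulfotransferase, at 4.75, 23.2 and 21.98 against 0.357, 0.187 and 0.711. Cyp2s1 stood at 9.49, 9.79 and 41.96 CPM against 67.8, 80.6 and 121, a log2 fold change of -2.46 ± 0.32, and lost its call without the run term (adjusted p = 0.0812). Cyp2e1, which oxidizes ethanol, stood at 0.0791, 0.249 and 0.401 CPM against 4.02, 4.85 and 2.25, with the call lost without Eed KO 385_1, Eed KO 385_2 or WT 385_2 (at most 0.0664). The glucuronosyltransferase Ugt1a6b rose from 0.536, 0.467 and 0.771 to 4.35, 3.49 and 4.46 CPM, but genes of the Ugt1a cluster share exons, so its value is uncertain.

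Some genes of lipid synthesis fell and 1 rose. Of 23 genes of cholesterol synthesis and uptake, all tested, 0 rose and 7 fell, with a median log2 fold change of -0.57, against -0.06 over all genes tested. The falls numbered 1 (without Eed KO 385_2) to 11 when 1 library was left out, 2 with the replicate block and 1 with library totals. Stard4, a carrier of cholesterol inside the cell, stood at 111, 108 and 87.5 CPM against 254, 238 and 176, a log2 fold change of -1.12 ± 0.15 (adjusted p = 0.00559), and held under each alternative. Scarb1, the receptor that takes up cholesterol from HDL, is outside the cholesterol list, so the 0 rises there do not cover every uptake gene. It stood at 42.9, 32.04 and 65.8 CPM against 7.23, 5.97 and 10.8, a log2 rise of 2.54 ± 0.20 (adjusted p = 0.00172 by edgeR). Among 30 genes of fatty acid synthesis and oxidation 1 rose and 5 fell (2 and 3 with the replicate block). The 1 rise was Scd1, the desaturase that makes oleate, at 59.9, 33.2 and 42.8 CPM against 4.82, 5.23 and 6.11 (log2 fold change 3.07 ± 0.28, adjusted p = 0.00218). Elovl6, the elongase of saturated chains, stood at 38.8, 41.2 and 30.6 CPM against 128, 114 and 102 (log2 fold change -1.65 ± 0.15, adjusted p = 0.00209). Fads1, a desaturase of polyunsaturated chains, stood at 26.1, 19.8 and 55.7 CPM against 90.6, 89.5 and 135, with the call lost without the run term (adjusted p = 0.0526). Ldhb, the lactate dehydrogenase subunit of oxidative tissues, stood at 22.1, 19.3 and 20.3 CPM against 0.536, 1.03 and 3.202, 1 of 2 rises among 21 glycolysis genes tested.

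DNA repair held the largest share of falls of the lists in the plot of shares by list. All 66 genes were tested, 0 rose and 21 fell, with a median log2 fold change of -0.61. The falls numbered 2 (without WT 385_2) to 28 when 1 library was left out and 15 with the replicate block. Rad54l, a motor protein of homologous recombination, stood at 16.5, 14.4 and 21.9 CPM against 47.8, 56.5 and 49.3, a log2 fold change of -1.55 ± 0.20 (adjusted p = 0.00485). Bard1, the partner of BRCA1, stood at 7.83, 6.22 and 9.22 CPM against 30.2, 29.6 and 23.2, a log2 fold change of -1.83 ± 0.23 (adjusted p = 0.00507). The proliferation marker Mki67 was also lower, at 282.7, 259.3 and 55.0 CPM against 684.2, 755.4 and 459.9. Among the Eed KO libraries it was lowest in 440_1, where Rad54l and Bard1 were highest. The part of proliferation in the falls was not tested. Among 26 BCL2 family and caspase genes 4 rose and 1 fell (4 and 0 with the replicate block, and 4 and 5 by DESeq2). Bax, a pro-apoptotic member, stood at 103, 119 and 118 CPM against 28.4, 28.4 and 47.7, a log2 fold change of 1.75 ± 0.20 (adjusted p = 0.00373), and held under each alternative.

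In 3 lists of other chromatin regulators, a few genes were called lower and none higher by edgeR. Over all genes tested 7.28% were lower and 10.5% higher. None of 16 histone deacetylase and sirtuin genes was called, while DESeq2 called 1 lower and up to 4 were lower when 1 library was left out. Of 26 genes for H3K4 and H3K36 methyltransferases and H3K27 demethylases 0 rose and 2 fell (1 with the replicate block and 7 by DESeq2). These 2 falls made 7.69%, near the share over all genes tested. Of 15 genes for DNA methylation enzymes and readers 0 rose and 2 fell, or 13.3% (0 and 3 by DESeq2). Uhrf1, which recruits the maintenance DNA methyltransferase, stood at 76.5, 44.6 and 119 CPM against 167, 158 and 192, and its call was lost with library totals, with no run term, and when WT 385_1, WT 385_2 or Eed KO 385_1 was left out (at most 0.121). Nsd2, an H3K36 methyltransferase, stood at 102, 87.8 and 70.9 CPM against 189.7, 184 and 161, with the call lost without WT 385_2 (adjusted p = 0.0569). Germline genes, which DNA methylation and Polycomb complexes silence in body tissues, had 9 members tested of 32, with 1 rise and 2 falls (1 and 1 with the replicate block). The rise was Rec8, a meiotic cohesin subunit, at 117, 67.6 and 108 CPM against 20.4, 9.15 and 3.62, with the call lost without Eed KO 385_1 or WT 385_2 (at most 0.0808).

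Non-coding RNAs were also called, beside 10.7% of 12712 protein-coding genes that rose and 7.48% that fell. Of 205 lincRNA genes 12 rose (5.85%) and 6 fell, and of 108 antisense genes 15 rose (13.9%) and 1 fell. Hoxa11os, antisense to the Hoxa11 locus, stood at 27.1, 26.7 and 14.9 CPM with no WT count (at least 284-fold higher), and Foxl2os, beside Foxl2, at 21.6, 29.2 and 7.61 with 1 WT count. Igf2os, at the imprinted Igf2 locus, stood at 3.95, 3.15 and 9.73 CPM against 0.179, 0.0934 and 0.178. Use of strand in counting is not stated in the labels or headers, so reads of these genes and of the genes they overlap cannot be told apart. Pvt1, a long RNA beside Myc, stood at 32.3, 41.9 and 13.1 CPM against 1.16, 2.24 and 1.304, a log2 fold change of 4.07 ± 0.38 (adjusted p = 0.00218). Eldr fell from 23.3, 32.3 and 28.9 CPM in WT to 5.54, 8.13 and 5.04 in Eed KO, a log2 fold change of -2.19 ± 0.26 (adjusted p = 0.00431). Of 137 pseudogenes 3 rose and 10 fell.

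Some genes that rose were neighbours in the order of tested protein-coding genes along the chromosome, in which untested genes were skipped. Of 1364 protein-coding genes that rose, 32.8% had a gene that rose as a direct neighbour among the tested genes of their chromosome, against 19.9% of all 12712. With Hox genes left out the shares were 31.3% and 19.7%. Of genes that fell, 21.1% had a neighbour that fell, against 14.1% of all. The 3 longest runs of neighbours that rose were Hox clusters, with 10 genes on chromosome 11 (Hoxb13 to Hoxb3 with Ttll6 and Gm53), 7 on chromosome 6 (Hoxa5 to Hoxa13) and 6 on chromosome 2 (Hoxd13 to Hoxd3), and Hox genes on chromosome 15 (Hoxc13 to Hoxc10) made a run of 4. Outside them, 5 neighbours rose on chromosome 4 (Dmrta2, Bend5, Spata6, Slc5a9 and Foxd2) and 5 on chromosome 2 (Smox, Prnp, Rassf2, Slc23a2 and Tmem230). The first run spanned chr4:109978053-114908873 and the second chr2:131491496-132247807, so the genes of such a run need not lie close together. Other runs of 4 genes included Etv4, Dusp3, Mpp3 and Mpp2 on chromosome 11, and Slc44a4, Neu1, Hspa1b and Hspa1a on chromosome 17. Hspa1a and Hspa1b are near-identical heat shock genes, whose reads can be split. Of the runs of 4 neighbours that fell, 1 was the calcium-activated chloride channel regulators Clca3a2, Clca3b, Clca4b and Clca4a on chromosome 3, which are tandem copies. The other, on chromosome 5, held B3glct, Fry, Brca2 and N4bp2l1. By chromosome, the share of tested genes that rose ran from 7.75% on chromosome 17 to 13.1% on chromosome 6, and the share that fell from 5.7% on chromosome 7 to 9.94% on chromosome 3.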

How the data were processed

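Polyadenylated RNA of 3 Eed KO and 3 WT crypt preparations was sequenced from strand-specific libraries, per the labels' protocols. Raw counts of reads per gene were deposited by the authors as 1 table per run. The submitters' processing notes list TopHat2 2.0.12, Bowtie 0.12.9, HTSeq, DESeq2 and the build GRCm38, with no role stated. Groups and runs came from titles and run labels, and each count column used was matched to its library by name, with 0 unmatched. Symbols came from GENCODE M21 for 21211 of 21420 shared identifiers, and coordinates from the deposited tables.

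The test was edgeR's quasi-likelihood test (glmQLFit, robust; edgeR 4.0.16, R 4.3.3) with TMM scaling, the low-count filter by group (minimum count 10, minimum total 15), run as a term and Benjamini-Hochberg adjustment over 13802 genes, of which 434 on chromosomes X and Y and 16 mitochondrial ones were then left out; the fit had 3 residual degrees of freedom. Unless another tool is named, adjusted p-values come from it, and a call means an adjusted p under 0.05. CPM use TMM-adjusted library sizes, while fold changes carry the run term and need not equal ratios of means. Lower bounds on folds set 0 counts at 3, summed over a group, and cover counting error only. On simulated counts for 13615 genes, 98% to 100% of genes changed 4-fold, 20% to 20.4% of genes changed 2-fold and 0.0522% of unchanged genes were called.

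Same-numbered libraries of a run deviated from their group means together (r = 0.18, 0.386 and 0.35), as did Eed KO 385_1 and WT 385_2 (0.389), so the block also reflects the run. Replicate libraries of run 385 differed by more than sampling noise (chi-square per degree of freedom 30.01 for Eed KO and 12.21 for WT). The comparison and its lists were chosen with earlier results of these data known. Named genes were called, had libraries that did not overlap between groups and 1 direction within each run. They were taken as the 10 protein-coding genes with the largest rise and fall in mean CPM and the 10 highest without a WT count. Added to these were up to 3 per direction in each of 53 lists by p, and the 5 non-coding genes per direction with the smallest p. Left out were 1047 genes of 11 lists described before (cell types, Hox, developmental factors, cell cycle and others), except in the choice from the 53 lists. Markers and genes of neighbouring runs named outside the rule were chosen after their values were seen or are fixed markers. The list of apolipoproteins was corrected after a first run because its pattern also took in other genes. Alternatives were DESeq2 1.42.0, other scaling, no filter, no run term, run 385 alone, the replicate block, 9 crypt libraries, removal of X, Y and mitochondrial genes, and each library left out in turn. Some genes that the naming rule or the lists hold are not reported here.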

Additional observations from a re-analysis of the deposited data

How the results depend on the processing

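Of 250 named and marker genes called, 102 kept their call in all alternatives that gave a value, 54 lost it with the replicate block and 0 reversed. The count of genes higher (1408) moved to 2218 within run 385 and ran from 553 to 2346 with 1 library left out. The count lower (972) moved to 1486 with all 9 crypt libraries, 557 with library totals, 377 without the run term, 1613 within run 385, 528 with the replicate block, 1583 with DESeq2 and 593 with a log2 change of at least 1 required, and ran from 173 (without WT 385_2) to 1730 (without Eed KO 440_1). Genes called without a WT count (89) became 154 without the filter and 148 with DESeq2, and 51 to 111 with 1 library left out. Of genes higher within run 385, 83.05% were higher in run 440, against 86.01% with library totals and 85.48% with DESeq2. Of genes lower, the 83.45% became 72.04% with library totals, 79.73% with upper quartile scaling, 80.03% without the filter and 81.53% with DESeq2. The share of CpG-rich starts among genes that rose from at most 0.1 CPM (60.57%) became 51.18% without the filter, 52.55% with DESeq2 and 45.14% with a ratio of 0.75. Why these values moved was not tested, beyond the genes and libraries each setting adds or removes. With 3 residual degrees of freedom and 20% of simulated 2-fold rises called, an uncalled gene cannot be read as unchanged. Genotype and sex pattern cannot be told apart within run 385, and run 440 has 1 library per genotype.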

Other observations

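Some gene groups outside the account above also held calls. Of 17 tested genes of the list of secreted factors that mark senescent cells 7 rose and 1 fell, with a median log2 fold change of 1.35 against -0.06 over all genes tested, and the rises numbered 4 with the replicate block and 0 without Eed KO 385_1. Plaur, the urokinase receptor, stood at 7.197, 6.64 and 8.24 CPM in Eed KO against 0.803, 0.8402 and 2.91 in WT, and Lmnb1, a nuclear lamin, fell from 230.0, 211 and 170.4 to 90.2, 65.8 and 108. Both calls were lost on leaving out Eed KO 385_1 or either WT library of run 385, and that of Plaur also on leaving out Eed KO 385_2 (edgeR adjusted p of at most 0.079 for Plaur and 0.0982 for Lmnb1). Of 14 muscle contractile genes tested 5 rose and 1 fell (3 and 0 with the replicate block), among them Tnni2, a troponin of fast skeletal muscle, at 3.72, 3.24 and 2.58 CPM against 0, 0.0934 and 0.178. Its call was lost without WT 385_2 (adjusted p = 0.0517), and the smooth muscle markers Acta2, Myh11 and Des were not called (adjusted p = 0.916, 0.898 and 0.464). Of 56 glycosyltransferases of mucins and glycolipids tested 10 rose and 5 fell (8 and 3 with the replicate block). St6gal1, which adds sialic acid to glycoproteins, stood at 54.1, 50.9 and 39.6 CPM against 4.999, 8.402 and 9.78, a log2 fold change of 2.64 ± 0.30 (adjusted p = 0.00389). B4galnt2, which makes the Sda blood group carbohydrate of the gut, fell from 388, 324 and 339 CPM to 147, 104 and 191, with the call lost without Eed KO 385_1 or WT 385_2 (at most 0.0754). Of 19 genes of the oxidative stress factor NRF2 tested 4 rose and 1 fell, and Txn1, thioredoxin, stood at 200.5, 273 and 414 CPM against 537, 582 and 853, its call lost with no run term or on leaving out WT 385_2 (at most 0.0803).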
